A study of Oryza sativa with 3 samples.

Results

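The heat shock chaperones and heat stress factors of rice were followed in leaves of 2 transgenic lines and their control cultivar. They comprised the genes whose symbol or synonym in the array annotation or the gene table begins with HSP, HSF, CLPB, CLPC or CLPD followed by a number or suffix, and BIP1. In all, 57 of the 39387 genes in the gene table met this rule, 22 small heat shock proteins, 12 large chaperones and 23 heat stress factors. Of these, 51 had a probe set listed for them alone, and 42 lay above the floor described below, against 14397 of the 17905 genes listed on the array.

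The samples were leaves of 6-week-old untreated plants, pooled from 10 plants each, raised in a greenhouse at 28 °C with 14 h of light. One array held wild-type Guichao2, an indica cultivar, and 2 arrays held Guichao2 carrying an OsEBS transgene, the lines B10201 and B10301. The promoter, the copy number and whether the lines came from separate transformation events are not given in the sources used here. OsEBS is known as a relative of the Hsp70 chaperones. The question addressed here is how far the genes that met the rule above differed in leaves that carry the OsEBS transgene. Of the Hsp70 family these genes include BIP1 alone, so its other genes were not followed. No gene of the annotation bears the symbol EBS, so the level of the transgene was not analysed here.

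Heat shock proteins are chaperones that keep other proteins folded or rescue them once aggregated. Small heat shock proteins bind unfolding clients, Hsp70 and Hsp90 proteins refold and mature them with ATP, and the ring-shaped ClpB proteins pull aggregates apart. Heat stress factors are the transcription factors that bind heat shock elements in the promoters of these genes, class A members as activators and most class B members without an activation domain. In unheated leaves many small heat shock protein genes are nearly silent, while Hsp90, BiP and plastid Clp genes serve daily protein folding.

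Signals are given on the log2 scale of the deposited values. A log2 ratio is the signal of a line minus that of the control, so that -1 and 1 stand for a signal 2-fold lower and 2-fold higher. The floor, below which signals were set equal, was set at the median over all 3 arrays, a log2 signal of 5.50. Median signals of the arrays were 5.41 for the control, 5.56 for B10201 and 5.54 for B10301. Of the 7 leaf genes on a marker list (photosynthesis proteins), 6 were above the floor, and the summed signals of the list were 17.52, 17.35 and 17.72 on the log2 scale in the control, B10201 and B10301. The median log2 signals of the list on these arrays were 15.09, 14.1 and 15.33, lowest in B10201. For seed storage proteins 4 of 9 were above it, with summed log2 signals between 12.62 and 12.91, and for floral organ identity genes 4 of 10, between 11.21 and 11.62. Probe sets named x_at or s_at, which may cross-hybridise, stood for HSP18.0, HSP18.1, HSP18.6, HSP18.8, HSP26.2, CLPB3, HSP81-3 and HSFA2A.

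In 2 runs of consecutive rows the B10301 column of the value table stood 1 row away from its probe sets, and 13 member probe sets of 10 genes lay inside. Each was given the value 1 row above. Over the longer run of 6717 probe sets, B10301 correlated across probe sets with the average of control and B10201 at 0.397 as deposited, 0.939 with the value from the row above and 0.345 with the value from the row below. Over the shorter run of 988 it was 0.051, 0.823 and 0.035. These are descriptions across probe sets, which are not replicates.

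The members affected show what the displacement does to a chaperone gene. CLPB2, the plastid disaggregase, had log2 signals of 12.17 in the control and 12.30 in B10201, and 9.16 in B10301 as deposited against 12.29 once moved. An HSP81-3 probe set that may cross-hybridise had 13.32 and 12.69, with 4.93 as deposited against 12.80 once moved. HSP26.7, a plastid small heat shock protein, had 3.13 and 1.25, with 10.84 as deposited against 1.91 once moved. As deposited, the Hsp90 probe set thus read far below the other arrays in B10301 and the small heat shock protein far above the other arrays, and after the move neither stood apart. Over the 13 probe sets the 2 lines lay a median of 3.14 log2 units apart as deposited and 0.50 once moved, and the number at least 2-fold apart went from 10 to 2. All values below use the moved signals.

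**Figure D1:**
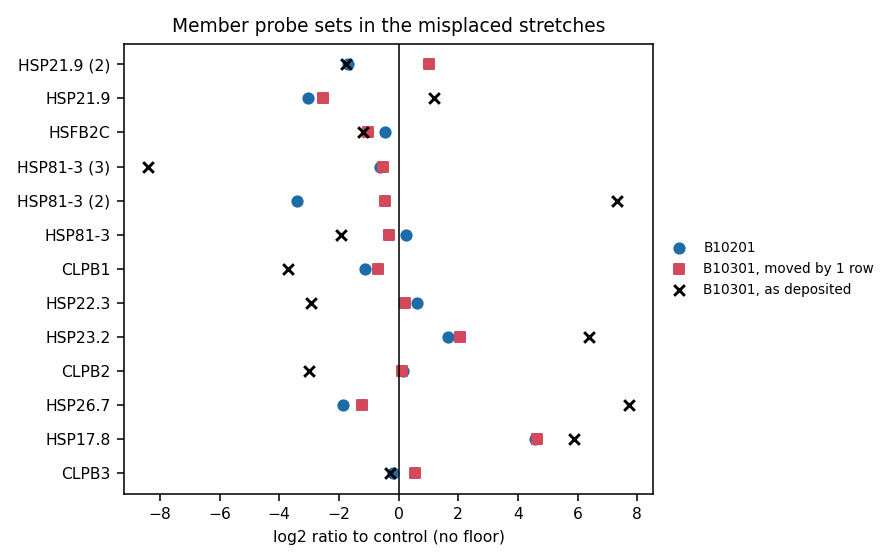
The log2 ratio to the control, with no floor, is plotted for the 13 member probe sets in the displaced rows, with B10201 as circles, B10301 after the move as squares and B10301 as deposited as crosses. Numbers in brackets mark further probe sets of the same gene. The crosses reach from -8.39 to 7.71, while most squares lie close to the circles.

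By the probe set that stands for each gene, that with the highest mean log2 signal, and with signals raised to the floor, no member differed 2-fold or more from the control in each of the lines. Over all 14397 genes measured, 4.61% did, 2% higher and 2.61% lower. The control array read HSP18.6 and HSFA2A below the floor, so their ratios are lower bounds only. Their mean signals passed the floor through the lines alone, so their direction was set in advance and is no result. A second probe set of HSP81-1, given below, was past 2-fold lower in both lines. Of the 42 measured members, both lines were above the control for 17, HSP18.6 and HSFA2A among them. They were below it for 17, and 8 went opposite ways, where 37.8% of all genes were higher in both and 41.6% lower in both. The median log2 ratio of the members was -0.039 in B10201 and 0.12 in B10301, beside -0.024 and -0.013 for all genes. Both ratios use the same control array, so the direction shared by the lines is not 2 independent observations.

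limma called 0 of 26475 probe sets (0%) after Benjamini-Hochberg adjustment, and the lowest adjusted p of a probe set standing for a member was 0.200. At an unadjusted p under 0.05 there were 4520 probe sets (17.1%); among members 1 higher and 6 lower reached it, against 10.3% and 9.89% of all genes. With 1 control array and 1 residual degree of freedom the fit borrows the spread of the lines for the control. Higher and lower are used here of measured signals that passed no test, and in whole leaves fewer cells of a type cannot be told apart from less RNA per cell.

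**Figure D2:**
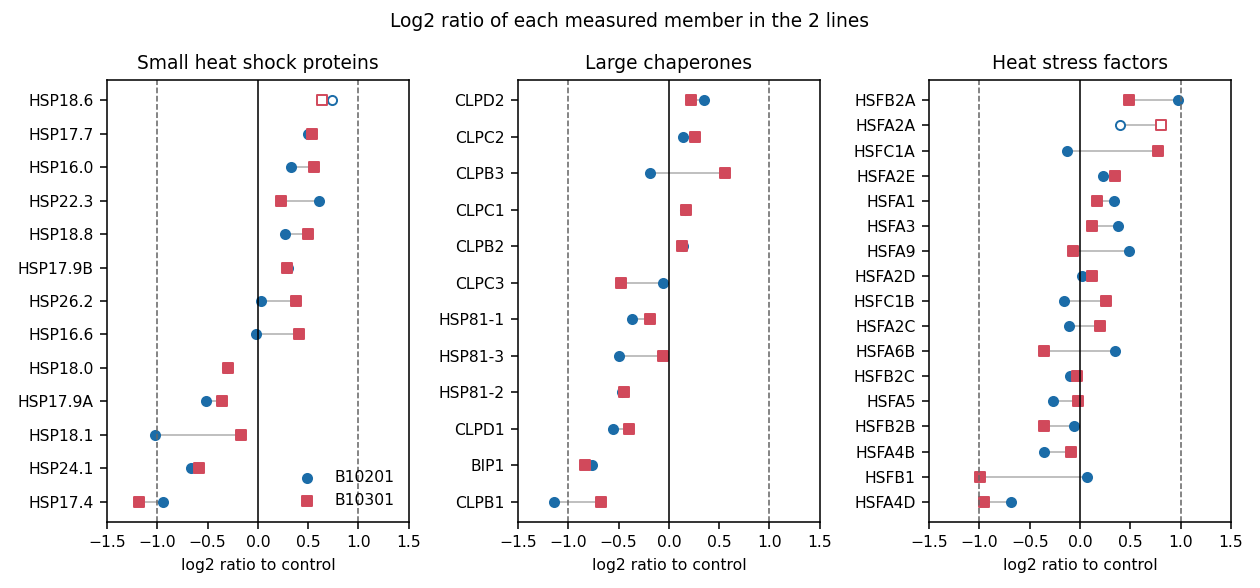
Each measured member is a row with its log2 ratio to the control in B10201 (circle) and B10301 (square), in 3 panels by class. Dashed lines mark 2-fold and open symbols mark genes at the floor in the control, whose ratios are lower bounds. No pair of symbols lies beyond a dashed line together, and the HSP81 genes and BIP1 lie to the left of 0.

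Among the large chaperones, by the probe sets that stand for the genes, the 3 cytosolic Hsp90 genes and BIP1 had lower signals in both lines. The plastid Clp genes were divided. All 12 were measured, and the lines were both below the control for 7 (58.3%), both above it for 4 (33.3%) and divided for 1. Over all genes 41.6% were lower in both and 37.8% higher in both. The median log2 ratio of the large chaperones was -0.28 in B10201 and -0.12 in B10301.

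BIP1, the Hsp70 chaperone of the endoplasmic reticulum, had a log2 signal of 14.48 in the control and of 13.72 and 13.64 in B10201 and B10301. Both lines lay below the control by far more than they lay from each other. Its mean log2 ratio was -0.80 ± 0.05 (SD, n = 2 lines), with an adjusted limma p of 0.200.

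The 3 HSP81 genes encode cytosolic Hsp90, which matures kinases and receptors. HSP81-2 had log2 signals of 14.20 in the control and 13.73 and 13.75 in B10201 and B10301, a mean ratio of -0.46 ± 0.01 (SD, n = 2 lines). HSP81-1 had 14.52, 14.15 and 14.33 on the same arrays. HSP81-3 had 14.90, 14.40 and 14.84. By the probe sets that stand for the genes, the lines lay below the control for each. B10301 was only 0.06 log2 units below it for HSP81-3.

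The size of the Hsp90 difference, and for HSP81-3 its direction in B10201, depended on the probe set. A second HSP81-1 probe set had log2 signals of 10.12, 8.92 and 8.79, ratios of -1.19 and -1.33. The 4 measured probe sets of HSP81-3 had mean ratios between -0.65 and -0.05. The probe set at -0.05 lay above the control in B10201, at 0.23, and below it in B10301, at -0.34 by a moved value. HSP81-2 and HSP81-3 stand close together on chromosome 9, with 2 genes between them. Another 2 probe sets are listed for both together with another gene, and they had ratios of -0.53 and -0.41, and of -0.73 and -0.74. The HSP81 copies are near-identical in sequence, so their signals may mix.

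**Figure D3:**
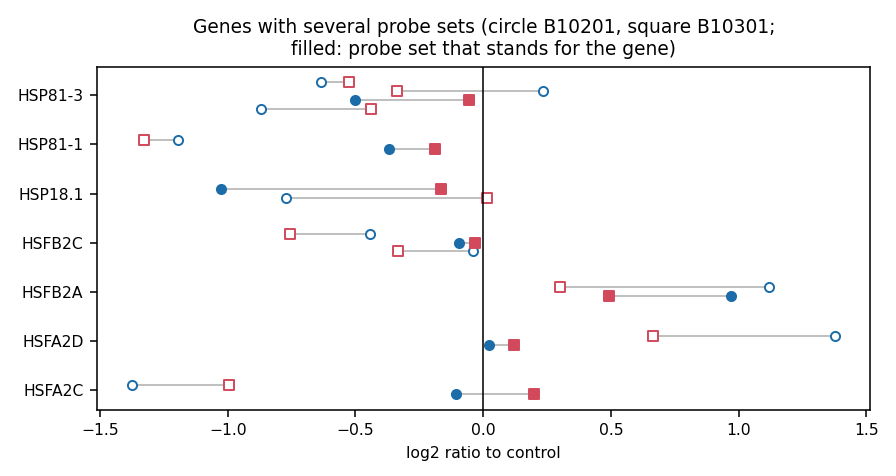
The log2 ratio to the control is plotted for every measured probe set of the 7 genes with more than 1, with B10201 as circles and B10301 as squares. Filled symbols mark the probe set with the highest mean signal, which stands for the gene; 6 of the 7 genes keep 1 sign of the mean ratio over their probe sets and HSFA2C does not.

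CLPB1, the cytosolic disaggregase also called HSP101 and needed for acquired heat tolerance, had log2 signals of 7.57 in the control and 6.44 and 6.90 in B10201 and B10301. Its mean ratio of -0.91 ± 0.33 (SD, n = 2 lines) was the lowest of the class by the probe sets that stand for the genes, and B10201 alone was past 2-fold, at 2.20-fold lower. The B10301 values of all CLPB genes are moved ones. CLPB2 of the plastid had a mean ratio of 0.13, which turned negative with arrays centred on their medians, and CLPB3 of the mitochondrion was at -0.19 in B10201 and 0.55 in B10301.

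CLPC proteins drive the plastid Clp protease and take part in protein import. CLPC1 had log2 signals of 14.71, 14.87 and 14.88 in the control, B10201 and B10301, and CLPC2 had 14.21, 14.35 and 14.47. Both lines lay above the control by at most 0.26 log2 units. With arrays centred on their medians the mean ratios were 0.018 for CLPC1 and 0.055 for CLPC2. CLPC3, near the floor, was at 6.39, 6.33 and 5.92.

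The CLPD genes, whose Arabidopsis relative is induced by drying and senescence, were divided. CLPD1 had log2 signals of 11.29, 10.73 and 10.89, a mean ratio of -0.48 ± 0.12 (SD, n = 2 lines). CLPD2 had 10.55, 10.91 and 10.77, a mean of 0.28 ± 0.10. For each gene both lines lay on the same side of the control.

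**Figure D4:**
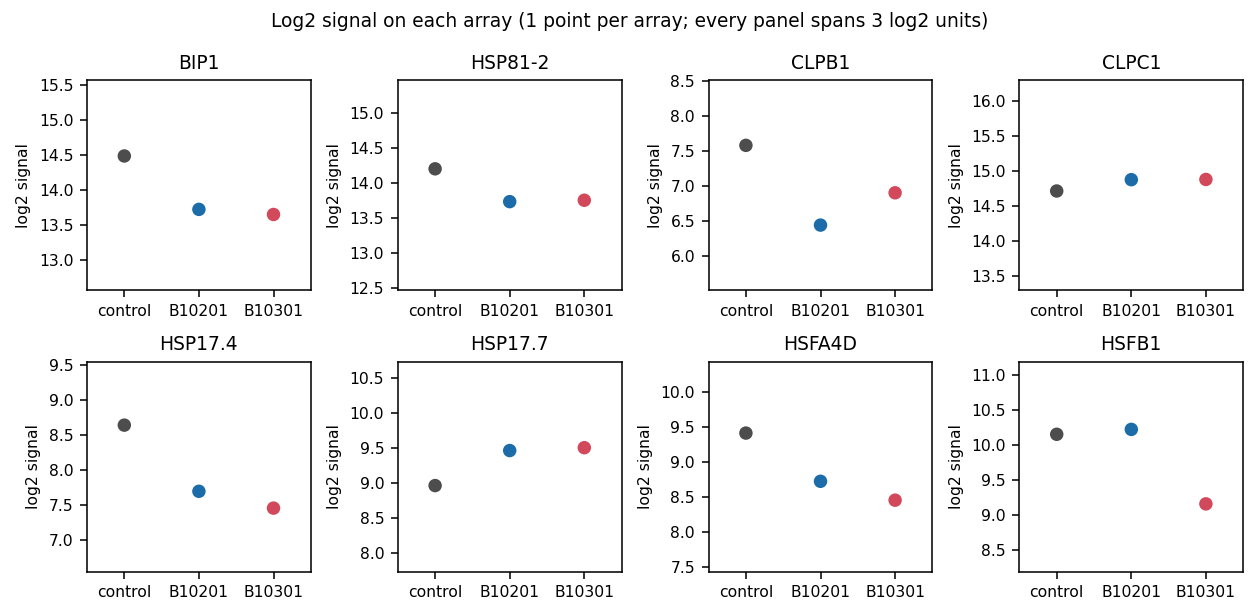
Log2 signals of 8 members are plotted for the 3 arrays, 1 point per array, with every panel spanning the same 3 log2 units. BIP1, HSP81-2, CLPB1, HSP17.4 and HSFA4D have the control above both lines, CLPC1 and HSP17.7 have it below both, and HSFB1 is low in B10301 alone.

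Small heat shock proteins lay on both sides of the control. Of 22 genes, 13 were measured, 6 lay below the floor and 3 had no probe set listed for them alone (HSP16.9C, HSP18.9 and HSP19.0). Among the measured, the lines were both above the control for 7 (53.8%, HSP18.6 included), both below it for 5 (38.5%) and divided for 1. HSP18.6 passed the floor through the lines alone, so its place among those above the control was set in advance and is no result. Over all genes 37.8% were higher in both and 41.6% lower in both. The medians of the small heat shock proteins were 0.034 in B10201 and 0.29 in B10301.

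HSP17.4, a cytosolic class I protein, had the lowest mean ratio of the measured small heat shock proteins, with log2 signals of 8.65 in the control and 7.70 and 7.46 in B10201 and B10301. It was 1.93-fold lower in B10201 and 2.28-fold lower in B10301, with a mean ratio on the log2 scale of -1.07 ± 0.17 (SD, n = 2 lines) and an adjusted limma p of 0.254. HSP24.1, listed in sequence databases as mitochondrial, had 11.35, 10.69 and 10.77, a mean of -0.62 ± 0.06. For both genes the lines lay close together and below the control.

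HSP17.4 lies in a cluster on chromosome 3 with HSP18.1 and HSP17.7 directly after it, and HSP17.9A lies before it with 4 genes between them. By the probe sets that stand for the genes, the lines were below the control for HSP17.9A, HSP17.4 and HSP18.1 and above it for HSP17.7. HSP17.9A had log2 signals of 9.30, 8.79 and 8.95, and HSP18.1, by a probe set that may cross-hybridise, 7.53, 6.51 and 7.37. A second HSP18.1 probe set, not named x_at or s_at, had 6.73, 5.95 and 6.74, ratios of -0.77 and 0.013. HSP17.7, whose overexpression is known to raise heat tolerance in rice, had 8.96, 9.46 and 9.50. It was thus the 1 gene of the cluster above the control in both lines, at 0.52 ± 0.03 (SD, n = 2 lines). HSP18.1 was past 2-fold in B10201 alone, by the probe set that stands for it, and near the control in B10301.

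On chromosome 1, HSP16.6, HSP17.9B, HSP16.9C, HSP16.9A and HSP16.9B stand side by side with no other gene between them. HSP17.9B had log2 signals of 12.66, 12.95 and 12.95, and HSP16.6 had 6.20, 6.19 and 6.61. HSP16.9A was near the floor on all arrays, at 5.55, 4.78 and 5.46. HSP16.9B stood at 0.50 in the control and 5.30 and 4.88 in the lines, all below the floor of 5.50, where no order was read. Of this cluster, the measured genes HSP17.9B and HSP16.6 lay within 0.41 log2 units of the control in both lines.

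The remaining small heat shock proteins were on the higher side with one exception. HSP18.6 had a mean ratio of 0.69 ± 0.07 (SD, n = 2 lines), but its control was below the floor at 4.48, so its ratios of 0.74 and 0.64 are lower bounds. Of its 3 probe sets only this 1 had a mean above the floor, through the lines alone. The others read 5.04, 5.79 and 3.80, and 0.89, 1.74 and 3.76, in the control, B10201 and B10301. HSP16.0, a peroxisomal protein, had log2 signals of 8.45, 8.78 and 9.01, and HSP18.8 had 12.73, 13.00 and 13.22. HSP22.3 had 8.48, 9.10 and a moved 8.71. HSP26.2 was close to the floor at 5.55, 5.58 and 5.93. HSP18.0, a cytosolic class II protein, was the exception, with 9.70, 9.40 and 9.41. HSP16.0, HSP18.8, HSP22.3, HSP26.2 and HSP18.0 lay within 2-fold of the control in both lines.

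Beside HSP16.9A and HSP16.9B, the genes below the floor were HSP17.8, HSP21.9, HSP23.2 and HSP26.7. HSP17.8 had log2 signals of 1.16 in the control and 5.71 and 5.81 in B10201 and B10301, so that the lines only just passed the floor. HSP23.2 had 3.57, 5.24 and 5.63. Signals this low are given as a record of the arrays and were not compared.

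The heat stress factors had medians near the control. Of 23 genes, 17 were measured, HSFA2B, HSFB4B and HSFC2A lay below the floor, and HSFA6A, HSFB4C and HSFC2B had no probe set listed for them alone. The medians were 0.024 in B10201 and 0.12 in B10301, and the factor median turned negative with arrays centred on their medians. The lines were both above the control for 6 genes (35.3%, HSFA2A included), both below it for 5 (29.4%) and divided for 6. HSFA2A passed the floor through the lines alone, so its place among those above the control was set in advance and is no result. Over all genes 37.8% were higher in both and 41.6% lower in both. By the probe set that stands for each gene, no factor reached 2-fold from the control, where the ratios of HSFA2A are lower bounds and second probe sets of HSFA2C, HSFA2D and HSFB2A, given below, were past it in B10201.

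HSFA1, the class A1 factor that starts the heat response in other plants, had log2 signals of 10.69 in the control and 11.03 and 10.86 in B10201 and B10301. HSFA2E had 10.66, 10.89 and 11.01, and HSFA3 had 10.09, 10.46 and 10.21. The 3 activators were thus slightly above the control in both lines, with mean ratios between 0.25 and 0.29. With arrays centred on their medians the mean ratios were 0.11 for HSFA1, 0.15 for HSFA2E and 0.10 for HSFA3.

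The A2 factors, which in Arabidopsis prolong the heat response, gave readings that varied with the probe set. HSFA2A was below the floor in the control, at 4.44, and its ratios of 0.40 and 0.80 are lower bounds. Of its 3 probe sets only this 1 had a mean above the floor, through the lines alone. The others read 5.32, 5.68 and 3.09, and 2.68, 4.84 and 4.92, in the control, B10201 and B10301. HSFA2D had 13.06, 13.08 and 13.18 by 1 probe set and 8.90, 10.28 and 9.56 by the other. HSFA2C had 8.34, 8.24 and 8.54 by 1 and 9.05, 7.68 and 8.06 by the other. By the second probe sets HSFA2D was higher in both lines, at 1.38 and 0.66, and HSFA2C lower in both, at -1.37 and -0.99.

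HSFA4D had the lowest mean ratio among the factors by the probe sets that stand for them, though the second probe set of HSFA2C was lower at -1.18. This gene is known from a rice spotted leaf mutant in which its loss leads to cell death lesions. Its log2 signals were 9.42 in the control and 8.73 and 8.46 in B10201 and B10301, a mean ratio of -0.82 ± 0.19 (SD, n = 2 lines) with an adjusted limma p of 0.263. HSFA4B, its closest relative by name, had 10.35, 10.00 and 10.26. The lines lay below the control for both genes, by more than the distance between them only for HSFA4D.

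The other class A factors were HSFA5, HSFA6B and HSFA9. HSFA5 had log2 signals of 9.25, 8.98 and 9.23. HSFA6B had 6.70, 7.05 and 6.34, and HSFA9, which in sunflower acts in seeds, had 9.77, 10.25 and 9.70. For HSFA6B and HSFA9 the control lay between the lines.

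Among class B factors, HSFB2A was above the control in both lines and HSFB1 differed between them. HSFB2A had log2 signals of 8.24 in the control and 9.21 and 8.73 in B10201 and B10301, a mean ratio of 0.73 ± 0.34 (SD, n = 2 lines), and its second probe set gave ratios of 1.12 and 0.30. HSFB1 had 10.16, 10.23 and 9.16, so that B10301 stood 1.06 log2 units below B10201 with the control beside B10201. It was the only measured member at least 2-fold apart between the lines, where 4.15% of all genes were. HSFB2B had 7.07, 7.01 and 6.71, and HSFB2C 7.85, 7.75 and 7.81. The 3 measured probe sets of HSFB2C had mean ratios between -0.60 and -0.06. The lowest, which may cross-hybridise, had log2 signals of 6.26, 5.82 and a moved 5.25, the last below the floor.

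Class C factors are most numerous in grasses. HSFC1A had log2 signals of 6.52, 6.39 and 7.29, and HSFC1B had 10.92, 10.77 and 11.18. In both genes B10301 was highest and B10201 lowest, by 0.90 and 0.41 log2 units between the lines.

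By the probe sets that stand for the genes, past 2-fold in a single line were CLPB1 and HSP18.1 in B10201, 2 of 42 members beside 9.11% of all genes, and HSP17.4 in B10301, 1 of 42 beside 8.28%. These 3 were lower than the control. The second probe set of HSP18.1, given above, lay within 2-fold of the control in both lines. Second probe sets past 2-fold higher in B10201 were those of HSFA2D and HSFB2A, given above. That of HSFA2C, also given above, was past 2-fold lower in B10201 alone.

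Chaperones act with helpers, and a list of 30 such genes, written by symbol, held 26 on the array and 25 above the floor. It takes in J-proteins that load Hsp70, disulfide isomerases, calreticulin, factors of the unfolded protein response and Hsp90 cochaperones, and also the stress-related genes EGY3, TIL1 and APX2. Of the 25, the lines were both below the control for 19 (76%), both above it for 4 (16%) and divided for 2. Among all genes 41.6% were lower in both and 37.8% higher in both. The list was chosen with earlier results of these data known, and the ratios of both lines use the same control array. The medians of the list were -0.27 in B10201 and -0.37 in B10301, beside -0.024 and -0.013 for all genes. At an unadjusted limma p under 0.05 there were 8 lower and 1 higher, against 9.89% and 10.3% of all genes, and none passed after adjustment (lowest adjusted p = 0.199).

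The lowest ratios of the list were those of a pair of J-proteins named for the endoplasmic reticulum. DJC27, also named ERDJ3A, had log2 signals of 10.88 in the control and 9.37 and 9.52 in B10201 and B10301. DJB6, also named ERDJ3B, had 12.81, 11.57 and 11.57. Both were past 2-fold lower in both lines, with mean ratios of -1.44 ± 0.10 and -1.23 (SD of the latter 0.0013, n = 2 lines). The other J-proteins of that compartment by name, DJC43 (ERDJ2) and DJC79 (ERDJ7), were nearer the control at -0.31 and -0.33.

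Disulfide isomerases and calreticulin followed at about the ratio of BIP1. PDIL1-1, the main isomerase, had log2 signals of 14.44, 13.56 and 13.49, and CRT1, a calreticulin that holds glycoproteins, had 14.07, 13.19 and 13.13. PDIL2-1, PDIL2-2, PDIL2-3 and PDIL1-4 had mean ratios of -0.89, -0.85, -1.02 and -0.67. The probe sets that stand for PDIL2-1 and PDIL2-3 may cross-hybridise. The B10301 values of CRT1 and PDIL2-3 are moved ones, and as deposited their mean ratios were -2.19 and -3.82. Other isomerases lay nearer the control, with PDIL5-1 at -0.25, PDIL5-4 at -0.26, PDIL5-2 at -0.18, PDIL1-2 at 0.02 and PDIL1-5 at 0.30.

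The regulators of the unfolded protein response were lower by less. BZIP50, the factor whose RNA is spliced by the stress sensor IRE1, had log2 signals of 10.65, 10.34 and 10.01, a mean ratio of -0.48 ± 0.23 (SD, n = 2 lines). IRE1 itself was at -0.23 and the membrane-bound factors BZIP39 and BZIP60 at -0.38 and -0.27. The Hsp90 cochaperones SGT1 and RAR1, both needed for immune receptors, were at -0.13 and 0.27. The probe sets that stand for BZIP39 and BZIP60 may cross-hybridise. The B10301 values of BZIP39 and SGT1 are moved ones, and as deposited their mean ratios were -2.96 and -1.81.

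EGY3 had the highest ratio of the list, with RAR1, PDIL1-5 and DJA6 also above the control in both lines by 0.36 log2 units or less. It is a plastid membrane protein of a protease family, and its Arabidopsis relative is induced by heat. Its log2 signals were 6.80 in the control and 9.09 and 9.08 in B10201 and B10301, a mean ratio of 2.29 ± 0.0062 (SD, n = 2 lines), and the adjusted limma p was 0.200. With the floor at the 75th percentile of all signals it fell below the filter and gave no value. TIL1 was at a mean ratio of -0.22 and APX2, a cytosolic ascorbate peroxidase, at 0.0053.

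**Figure D5:**
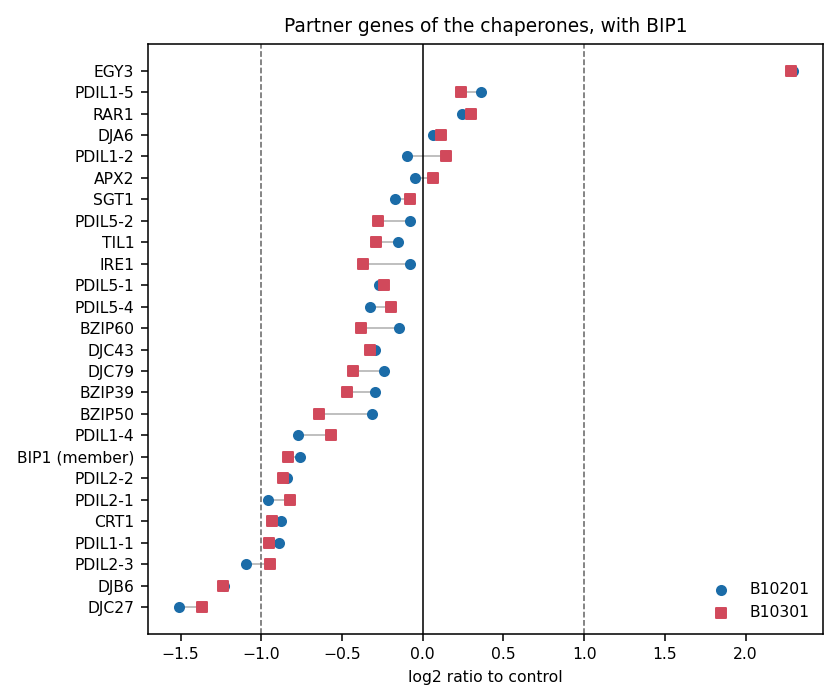
The log2 ratio to the control in B10201 (circle) and B10301 (square) is plotted for the 25 measured helper genes, with BIP1 among them, and dashed lines mark 2-fold. BIP1 lies among disulfide isomerases and CRT1 between -0.57 and -1.09, DJC27 and DJB6 lie further left, and EGY3 lies at 2.29 and 2.28.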

How the data were processed

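Leaf RNA was hybridised to Affymetrix rice arrays, 1 per sample. The deposited log2 signals were made by the authors with MAS5, per the submitters' processing notes; the version is not given in the sources used here. B10301 values in rows 24427 to 31143 and 53064 to 54051 (7705 probe sets, 13.5%) were replaced by those 1 row above, and no other normalization was applied. Signals were raised to a floor at their median, 5.50 (45.4 linear), and the 26475 probe sets with a mean above it were kept. The annotation gives 1 gene for 22436 of 57194 probe sets, several for 95 and none for 34663; all 17905 genes were found in the gene table of assembly ASM3414082v1, used for names and order only. The probe set with the highest mean stood for a gene.

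limma 3.58.1 (R 4.3.3) with an intensity trend was fitted to all 3 arrays and checked on simulated data; p-values were adjusted by Benjamini-Hochberg at 0.05 over all probe sets. The number of arrays limits the precision, and since nothing says that the lines were sampled repeatedly, p-values measure only the spread between these samples. Python 3.11.15, pandas 2.3.3 and matplotlib 3.10.9 did the rest. Any member could be named; of the helper genes, those 2-fold in both lines were named by rule and the others after their values were seen. The members and lists were chosen with earlier results of these data known. Alternatives were the floor, scaling, handling of the displaced rows, choice of probe sets, leaving out a line, and limma settings.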

Additional observations from a re-analysis of the deposited data

How the results depend on the processing

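By the probe set that stands for each gene, no member was 2-fold from the control in both lines with a floor at the 75th percentile, quantile normalization, the displaced rows left out, no cross-hybridising probe sets or probe sets averaged. There were 5 with a floor at the 25th percentile, all higher (HSP18.6, HSFA2A, HSP23.2, HSP17.8 and HSP16.9B), and 6 with no floor, the same genes and HSP26.7, lower; these all have a control signal below the main floor. There was 1 with centred arrays, HSP17.4, and 1 with B10301 as deposited, CLPB1, both lower. From a single line the count was 1 to 2. Members 2-fold apart between the lines numbered 3 with the 25th percentile floor, 4 with no floor and 4 as deposited, where CLPB2, HSP22.3 and HSP23.2 joined HSFB1. Centring moved the median log2 ratio of all genes from -0.019 to -0.16. It moved the median of the small heat shock proteins from 0.21 to 0.062 (0.11 with quantile normalization), that of the large chaperones to -0.42 (-0.39 with quantile normalization), turned that of the factors to -0.094 and moved that of the helper genes to -0.41. From a single line these medians ran from 0.034 to 0.29, from -0.28 to -0.12, from 0.024 to 0.12 and from -0.37 to -0.27. Signs of the mean ratio turned for HSFC1B, HSFA2D, CLPB2 and HSFA2C with centring, for HSFA2D with quantile normalization, for HSFA2C with probe sets averaged, and for CLPB3, CLPB2 and HSP22.3 as deposited. Helper genes 2-fold in both lines numbered 3 of 25, where 4.61% of all genes were. There were 2 with the 75th percentile floor (which leaves EGY3 out), 4 as deposited, 5 with quantile normalization and 6 with centring. From a single line there were 3 to 4. The share of all genes in these other settings is not given here. The alternatives for helper genes were chosen after seeing the data. limma called 128 probe sets with no floor, 52 with robust moderation and 2 at an adjusted p of 0.1, and 0 in its other settings; 0 members were called in any. The causes were not tested. No paired analysis was possible because 1 control array served both lines. Signal near the floor limits the small heat shock proteins most.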
